A study of Mus musculus with 2 samples.

Results

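The regions described here are distal binding sites of the vitamin D receptor (VDR) that were called in fetal mouse left ventricle under a normal maternal diet and had no counterpart under a vitamin D deficient one. A normal-diet peak was taken when no deficient-diet peak lay within 1 kb, edge to edge, and when its summit lay over 1 kb from both ends of every RefSeq gene span, inside or outside genes. Fixed 100-kb bins with 10 or more peaks of either list were left out, as were the Y chromosome and unplaced sequence. Of the 23270 normal-diet peaks on the autosomes and X, 9199 (39.5%) met the rule, out of 61117 peaks in both lists together. Absence from the deficient-diet list is how these peaks were chosen and is no result.

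The study used left ventricles of mouse embryos at stage E16.5, with 1 VDR ChIP-seq library from a normal maternal diet and 1 from a vitamin D deficient maternal diet. Strain, sex, the number of mothers and embryos behind a library, and any treatment other than diet are not given in the labels. Diet and library therefore cannot be told apart, all values describe these 2 libraries, and no p-value was computed. The left ventricle holds cardiomyocytes, endothelial and endocardial cells, fibroblasts, epicardial cells, nerves and blood, and a peak in bulk chromatin does not tell in which of these the receptor was bound.

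VDR is a nuclear receptor that is activated by the hormonal form of vitamin D and binds DNA mostly as a heterodimer with a retinoid X receptor. Its best known element is a direct repeat of a hexamer of the AGGTCA type with a short spacer, and many of its sites in other tissues lie far from gene starts, in introns and between genes. In the mouse heart, loss of VDR has been linked to hypertrophy of the muscle.

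For comparison, 3 groups were used. They were the 6920 distal normal-diet peaks with a deficient-diet peak within 1 kb (called paired), the 19814 distal deficient-diet peaks with no normal-diet peak within 1 kb (called deficient-only), and the sequence that could have held a normal-diet-only peak under the same rule, 2320 Mb in all. Assembly gaps and repeats to which reads cannot be assigned were not taken out of the 2320 Mb. Their part in the comparisons with this sequence was not tested. Total depth was not analysed, and background differed between the libraries. The lowest background in a list, read as the coverage expected across the genome and called the genome-wide background, was 2.65 fragments under the normal diet, while under deficiency it was 5.38. The lowest summits called stood at 4.14 times this value under the normal diet and at 2.97 times under deficiency. How far this difference shaped the set of normal-diet-only peaks was not tested.

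Sequences are given first for peaks whose letters the reference tables hold. These are 38 normal-diet-only peaks with a summit in the 250 bases before a transcript start inside a gene, over 1 kb from every gene end, where alternative promoters lie. Of these, 8 are printed, each as the stretch covered by both the peak and the 250 bases. Rps27l and Idh1 had the highest peak significance, Hopx, Egfl7 and Pparg belong to gene lists described further on, and Ace encodes angiotensin-converting enzyme. Dedd and Rph3al are shown because each held 2 hexamers of the VDR type. Ace, Dedd and Rph3al were chosen after their sequences were seen. Letters run 5′ to 3′ on the strand of the transcript, from RefSeq on GRCm38.p6 (mm10), and capitals mark the hexamer AGGTCA, its variant AGTTCA, the variant GGGTCA or the variant GGTTCA, or the reverse complement of any of these.
Rps27l (chr9:66946240-66946412, plus strand): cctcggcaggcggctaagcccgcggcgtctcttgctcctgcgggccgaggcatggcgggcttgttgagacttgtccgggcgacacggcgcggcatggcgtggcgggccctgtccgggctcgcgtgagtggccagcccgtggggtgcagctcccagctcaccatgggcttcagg
Idh1 (chr1:65179269-65179392, minus strand): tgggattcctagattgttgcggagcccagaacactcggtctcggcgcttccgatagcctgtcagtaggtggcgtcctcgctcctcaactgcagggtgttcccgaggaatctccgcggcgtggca
Hopx (chr5:77095268-77095445, minus strand): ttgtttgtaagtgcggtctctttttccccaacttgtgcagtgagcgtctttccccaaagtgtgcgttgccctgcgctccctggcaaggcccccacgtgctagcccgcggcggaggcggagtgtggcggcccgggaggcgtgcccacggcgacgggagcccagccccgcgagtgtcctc
Egfl7 (chr2:26583769-26583864, plus strand): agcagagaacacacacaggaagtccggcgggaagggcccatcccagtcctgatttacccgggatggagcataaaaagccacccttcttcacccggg
Ace (chr11:105974939-105975036, plus strand): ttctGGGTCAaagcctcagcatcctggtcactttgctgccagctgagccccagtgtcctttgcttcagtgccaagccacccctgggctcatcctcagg
Pparg (chr6:115362167-115362347, plus strand): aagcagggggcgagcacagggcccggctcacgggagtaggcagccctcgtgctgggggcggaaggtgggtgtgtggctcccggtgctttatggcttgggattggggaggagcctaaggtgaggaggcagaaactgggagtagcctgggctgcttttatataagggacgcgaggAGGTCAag
Dedd (chr1:171328972-171329144, plus strand): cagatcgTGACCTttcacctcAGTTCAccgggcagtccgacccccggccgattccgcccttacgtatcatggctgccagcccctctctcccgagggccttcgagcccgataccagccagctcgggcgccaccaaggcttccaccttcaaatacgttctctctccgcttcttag
Rph3al (chr11:75925892-75926112, minus strand): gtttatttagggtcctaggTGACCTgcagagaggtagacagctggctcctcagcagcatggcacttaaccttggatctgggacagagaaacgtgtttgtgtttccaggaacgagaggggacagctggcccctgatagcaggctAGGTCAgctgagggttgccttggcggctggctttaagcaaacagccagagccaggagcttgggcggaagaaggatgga
Ace and Pparg held 1 hexamer each in the covered stretch, and Rps27l, Idh1, Hopx and Egfl7 held none.

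Peaks at such internal starts were dense. The 38 summits were 0.413% (0.292% to 0.567%) of the 9199 peaks. They fell in 0.989 Mb of upstream windows of 4180 internal starts, a density of 38.4 per Mb. Over all sequence open to the rule the density was 3.96 per Mb. Sequence within 1 kb of a deficient-diet peak was left out of the open sequence but not of the windows. Deficient-only peaks had 37 summits there, 37.4 per Mb against 8.33 per Mb over all distal sequence, and paired peaks had 21 (21.2 per Mb). Idh1, the cytosolic isocitrate dehydrogenase, had the peak chr1:65179269-65179459 with a pileup of 22 fragments at the genome-wide background, 51761 bp from any deficient-diet peak. Hopx, a homeodomain protein that restrains growth of the embryonic heart muscle, had the peak chr5:77095265-77095445 with a pileup of 21. Its nearest deficient-diet peak lay 73296 bp away. Pparg, a nuclear receptor of lipid storage, had a peak of 16 fragments whose summit lay 62 bp before an internal start, and no deficient-diet peak within 110218 bp. Egfl7, a secreted endothelial factor, had a peak of 17 fragments 10 bp before an internal start. The 38 pileups ran from 13 to 25 with a median of 17.

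The windows with a normal-diet-only summit were rich in G, C and CpG but not in the hexamers. Median GC content was 60% and the median number of CpG dinucleotides 17 in the 39 windows with a summit (1 peak fell in 2 windows of Adgrl3), against 50.4% and 4 in all internal windows. Windows with a deficient-only summit had 60.8% and 16. Any of the 4 hexamers, searched on both strands with overlaps allowed, was found in 15 of 39 windows, or 38.5% (95% exact binomial interval 23.4% to 55.4%). The share was 41.1% of the 4180 internal windows and 38.7% of all 32585 windows of the same length in the table. The direct repeat of 2 hexamers with 3 bases between them was found in 0 of 39 windows and in 13 of all 32585. A match or its lack describes these letters only.

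Most of the 9199 peaks were low. The pileup, a count of fragments over the summit, had a median of 16, with a range of 11 to 362 and 94.8% of peaks at 20 or fewer. The authors' fold enrichment over local background had a median of 4.38, from 3.56 at the lower decile to 5.20 at the upper one. Median -log10 q, the authors' significance after adjustment, was 4.28, and 31.2% of the peaks had 5 or more. Of the paired peaks 38.9% reached that value, with the same median pileup of 16 and a median width of 255 bp against 218 bp. The taller a distal normal-diet peak, the less often it was unpaired. At the genome-wide background, 59.0% (56.3% to 61.5%) of distal normal-diet peaks with a pileup of 14 were normal-diet-only, against 40.1% (35.1% to 45.3%) of those with 21 or more.

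**Figure D1:**
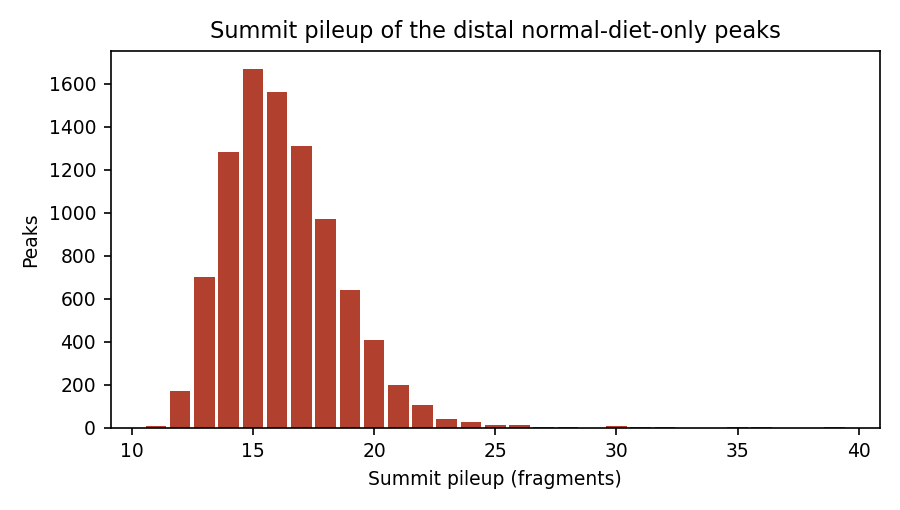
Number of distal normal-diet-only peaks (vertical axis) at each summit pileup in fragments (horizontal axis) in the 1 normal-diet library. The bars centre on the median of 16 fragments, and the 43 peaks above 40 fragments are not drawn.

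The strongest calls were a small and separate set. Of the 10 peaks with the highest -log10 q, 10 had a local background at least 5 times the genome-wide one, as had 38 of all 9199. The 6 strongest outside gene spans were chr2:98663677-98664084 and chr2:98664953-98665280, over 1 Mb from the nearest protein-coding gene Lrrc4c, 3 peaks of 3260 to 5338 bp near the start of chromosome 9, and chr16:17222247-17222477, 8370 bp from Rimbp3. Their backgrounds were 19.4 to 56.9 times the genome-wide value, and their fold enrichments 2.39 to 3.82. The 6 peaks wider than 1 kb and the 6 at the largest pileup in the list, 362, all belonged to this set.

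Among the 8 strongest inside gene spans, 7 were of the same kind. They lay in the long noncoding RNA genes Gm36876 and Gm33838 and in Chl1, a neural adhesion molecule, Gphn, the gephyrin scaffold of inhibitory synapses, Aida, Cdk5rap2, a centrosome protein, and E030030I06Rik. Their backgrounds ran from 10.3 to 58.1 times the genome-wide value. The exception was Shroom2, a regulator of the actin cytoskeleton on the X chromosome. Its peak chrX:152728129-152728390 had 39 fragments over a background of 1.29 times the genome-wide one, a fold enrichment of 9.04, the highest of all 9199. The nearest deficient-diet peak was 203701 bp away.

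At the genome-wide background, which 5126 peaks (55.7%) had, the tallest had 32 fragments. This peak, chr10:4241526-4241875, lay 24629 bp from Akap12, which encodes a scaffold of protein kinase A. Next came sites of 28 fragments 117021 bp from Adcy8, an adenylyl cyclase, and 196648 bp from Grm8, a glutamate receptor. Inside genes, Ank1, the erythroid ankyrin, had chr8:23095479-23095759 with 27 fragments, and Tgm2, transglutaminase 2, had chr2:158142912-158143183 with 26. These genes were named after their values were seen.

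The normal-diet-only peaks lay more often inside genes than the sequence open to them. Of 9199 summits, 5540 were inside a gene span, or 60.2% (95% exact binomial interval 59.2% to 61.2%, counting error only), where 46.8% of that sequence was inside. The density was 5.10 per Mb inside and 2.97 per Mb outside. Paired peaks were inside in 52.0% (50.8% to 53.2%) and deficient-only peaks in 59.0% (58.3% to 59.7%). This share was closer to that of the unpaired peaks of the other diet than to that of the paired peaks of the same list. The strongest departed from this, with 2 of the top 10 and 48 of the top 100 inside. Of the top 10, 10 had a background at least 5 times the genome-wide one, and of the top 100, 27 had. Over the top 1000 the share inside was 59%.

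Density fell with distance from the nearest gene end inside genes and changed less outside. Inside spans it was 11.8 per Mb at 1 to 2 kb from an end, 6.06 at 5 to 10 kb and 1.43 beyond 100 kb. Outside spans it was 3.68 per Mb at 1 to 2 kb, 3.91 at 5 to 10 kb and 1.96 beyond 100 kb. Deficient-only peaks fell likewise inside, from 19.4 to 3.09 per Mb.

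**Figure D2:**
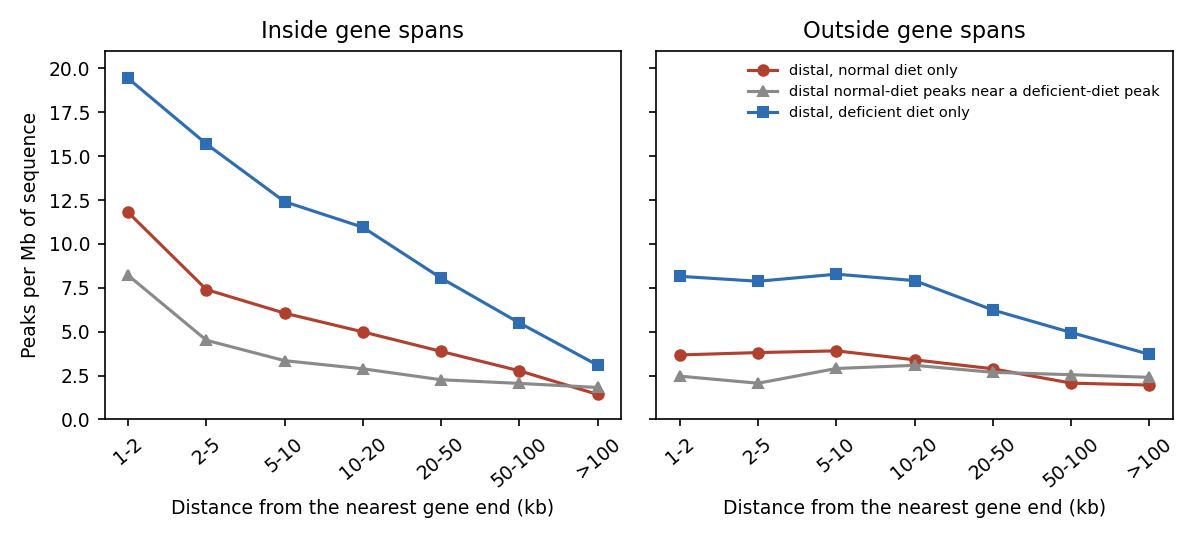
Distal peaks per Mb of sequence (vertical axis) by distance of the summit from the nearest gene end in kb (horizontal axis), inside gene spans (left) and outside (right), for normal-diet-only, paired and deficient-only peaks, 1 library per diet. Inside genes the normal-diet-only line falls from 11.8 to 1.43 per Mb, and outside it stays between 1.96 and 3.91.

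Within genes the peaks leaned towards the 3′ end. Of 3801 peaks inside a single protein-coding gene whose strand was known, 42.6% (41% to 44.2%) lay in the first 50% of the gene, where 50.3% of the sequence lay. The last 25% held 31.7% (30.2% to 33.2%) of peaks and 23.7% of the sequence. The lean was not even along the gene. Density near the gene's own end was 19.1 per Mb at 1 to 2 kb, 12.7 at 2 to 5 kb and 7.84 at 10 to 20 kb, against 17.7, 8.49 and 7.16 at the same distances from its own start. At 20 to 50 kb the order turned, with 5.59 per Mb from the end and 6.18 from the start. Both other classes had the same lean, with 31.0% of paired and 31.0% of deficient-only peaks in the last 25%.

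Although chosen to lie apart from deficient-diet peaks, the normal-diet-only peaks lay closer to them than the open sequence did. The median gap was 16767 bp, against 40041 bp for the sequence. Of the peaks, 36.6% lay within 10 kb of a deficient-diet peak, and of the sequence 17.2%. Density was 11.3 per Mb at a gap of 1 to 2 kb and 1.77 per Mb beyond 100 kb. Median pileup was 16 in every class of gap. The 140 peaks up to 200 bp beyond the limit of 1 kb had a median -log10 q of 4.28, as had the 168 left out just within it.

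**Figure D3:**
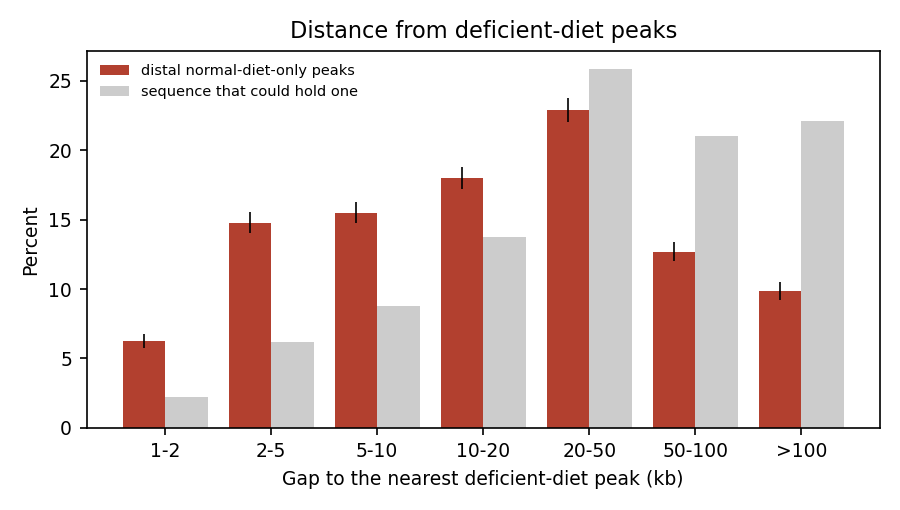
Percent (vertical axis) of normal-diet-only peaks (red, bars with exact 95% binomial intervals) and of the sequence that could hold one (grey) by gap to the nearest deficient-diet peak in kb (horizontal axis). Peaks exceed sequence at every gap up to 20 kb, with 6.27% against 2.21% at 1 to 2 kb, and fall below it at larger gaps, with 9.85% against 22.1% beyond 100 kb.

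At the other limits of the rule, the 233 peaks with a summit up to 200 bp beyond 1 kb from a gene end had a median -log10 q of 4.81, and the 290 just within that distance 4.30. Bins of 9 peaks held 276 normal-diet-only peaks and bins of 10 peaks held 213 that were left out, both with a median of 4.28.

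The chromosomes differed in density. Chromosome 11 had the most normal-diet-only peaks per Mb of open sequence, 6.47, which is 1.63 times the mean. Its paired peaks stood at 1.19 times and its deficient-only peaks at 1.51 times their own means. The X chromosome had the fewest, with 173 peaks and 1.10 per Mb, 0.277 times the mean, against 0.565 for paired and 0.407 for deficient-only peaks. It held 1.88% (1.61% to 2.18%) of the peaks and 6.79% of the sequence. Over the 20 chromosomes, density went with the number of protein-coding genes per Mb (Pearson r = 0.81, a description over chromosomes of 1 library). The sex of the embryos is not given, and its part in the X value was not tested.

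**Figure D4:**
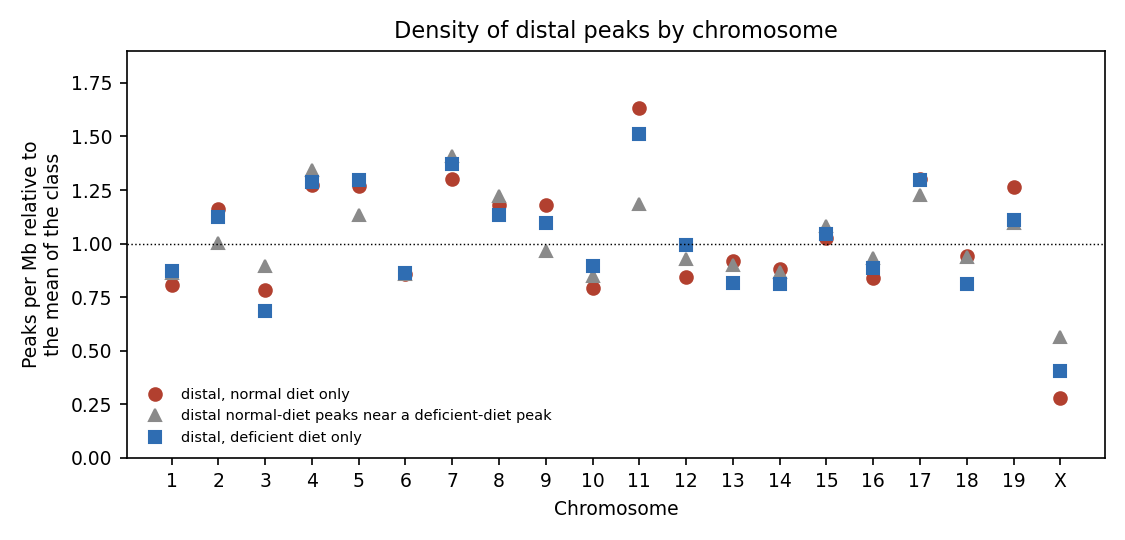
Distal peaks per Mb relative to the mean of each class (vertical axis, dotted line at 1) on each chromosome (horizontal axis), for normal-diet-only (circles), paired (triangles) and deficient-only peaks (squares). Chromosome 11 is highest for normal-diet-only peaks at 1.63, and X lowest in all 3 classes.

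Most of the peaks stood alone. From a summit to the nearest other normal-diet-only summit, the median distance was 57798 bp. Another lay within 10 kb for 17.4% (16.6% to 18.2%), against 26.2% of paired and 30.2% of deficient-only peaks among their own kind. The classes differed in density, with 3.96 normal-diet-only peaks per Mb of open sequence and 8.33 deficient-only peaks per Mb of distal sequence. These shares were not adjusted for density. Linking summits 10 kb or less apart left 7600 single peaks, 637 pairs, 79 runs of 3, 17 runs of 4 and 4 runs of 5. The shortest run of 5, on chromosome 19, spanned 10348 bp across Lrfn4 and Pcx, which encodes pyruvate carboxylase, with pileups of 14 to 19. The next lay in Rasgef1a on chromosome 6, over 10617 bp, with pileups of 12 to 21. Another, at Gm11476 and Ube2v1 on chromosome 2, had pileups of 13 to 19 over 17818 bp. The run in Erdr1 on X differed, with backgrounds of 3.62 to 6.61 times the genome-wide one. So did the shortest run of 4, outside genes on chromosome 2, which held the 2 strongest peaks of all.

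By gene, 3430 of 21631 protein-coding genes had at least 1 normal-diet-only summit inside the span (15.9%). Of these, 2472 had 1, 591 had 2 and 367 had 3 or more (1.7% of all). A deficient-only summit was found in 25.8% of genes. Long genes had more room, and genes with a peak had a median length of 54.4 kb against 17.3 kb for all. The gene with the most was Camta1, a calmodulin-binding transcription activator, with 15 in a span of 802246 bp. Prdm16, a transcription factor whose loss is tied to left ventricular noncompaction, and Slc39a11, of the zinc transporter family, had 11 each.

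Rbfox3, a neuronal splicing factor, and Nav2, a neuron navigator, followed with 9 each. Ephb2, a receptor of ephrins, Igsf21, Dym and Cdh23, a cadherin, had 8 each. Epb41l1, a membrane skeleton protein, Col5a1, a chain of type V collagen, and Trak1, which links mitochondria to kinesin, had 7 each. Pileups in these 12 genes ran from 12 to 21. Every one of the 12 also held deficient-only peaks, from 3 in Epb41l1 to 27 in Camta1.

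Per length, short genes led among the 367 genes with 3 or more peaks. Socs3, the feedback inhibitor of cytokine signalling, had 3 peaks in 4258 bp, or 70.5 per 100 kb. They were chr11:117967942-117968132, chr11:117968302-117968516 and chr11:117969014-117969200, with pileups of 15, 17 and 16, and the nearest deficient-diet peak lay 1086 bp from the first. Gna11, a G protein subunit of the Gq family, had 4 peaks (24.3 per 100 kb), and Dok4, an adaptor of tyrosine kinases, had 3 (24.0). Foxm1, a transcription factor of the cell cycle, had 3 (23.3), and Fasn, fatty acid synthase, had 4 (20.8). Llgl1, a cell polarity gene, Mnt, a repressor that pairs with Max, Zswim8 and Relt, of the TNF receptor family, had 3 each, and Casp9, the initiator caspase of the mitochondrial pathway, had 4. The last 5 ran from 17 to 20.7 per 100 kb.

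Of the 367 genes with 3 or more, 40 had no distal deficient-only peak, and 21 had no other distal peak of either list. Over all protein-coding genes, not matched for length, 5570 of 21631 (25.8%) held a distal deficient-only peak. Among genes with a normal-diet-only peak the share rose with length, from 11.2% up to 10 kb to 82.8% over 200 kb. Lacking one was thus common in short genes and less so in long ones. The share of all genes without any other distal peak, to set beside the 21, was not computed. Gna11, Casp9, Socs3, Foxm1 and Mnt were among the 21, as were Tgm2 and Scarb1, a lipoprotein receptor, and Vdr itself. Tgm2 and Scarb1 were named after their values were seen. At Vdr the peaks were chr15:97869422-97869605 and chr15:97870939-97871147, with 14 fragments each, and chr15:97892148-97892337 with 19. The gene was not free of deficient-diet peaks: 2 lay within 1 kb of a gene end, 1 of them overlapping a normal-diet peak between the sites of 14 and 19 fragments, which the rule leaves out. Gna11, Socs3, Mnt and Tgm2 also held 1 unpaired deficient-diet peak each within 1 kb of a gene end.

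Genes with a normal-diet-only peak held deficient-only peaks more often than genes of the same length class without one. Among genes of 10 to 25 kb, 40.1% (36.4% to 43.9%) with such a peak also had a deficient-only one, against 20.8% (19.6% to 22.0%) of those without. Among genes of up to 10 kb, 20.5% with a distal normal-diet-only peak also had a normal-diet-only peak at a gene end, against 8.36% without. The shortest genes of that class have no room for a summit over 1 kb from both ends. They counted as without, so length was not matched within the class. This second difference was largest in that class and small in the longest genes, with 13.6% (11% to 16.6%) against 11.4% (9.33% to 13.7%) at 100 to 200 kb and 10.7% (8.24% to 13.6%) against 9.82% (7.20% to 13.0%) over 200 kb, where the intervals overlap. The first had the same direction in each of the 6 length classes.

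Gene lists were read against the number of peaks that protein-coding genes of the same length classes would give at their average rates. Of 408 list genes, 141 had a normal-diet-only peak inside (34.6%), against 3430 of all 21631 protein-coding genes (15.9%). These shares were not matched for gene length. Above their length-class rate were 11 of 15 lists, and most of the lists were so for deficient-only peaks as well. Over all protein-coding genes the median was 0 peaks per gene, and the density 4.80 per Mb of span. Cardiac transcription factors were highest. Of 30 genes, 12 had 27 peaks in all, 3.14 times the rate (95% Poisson interval 2.07 to 4.57), with deficient-only peaks at 1.91 times. Prdm16 held 11 of the 27, and without it the density fell from 13.4 to 9.47 per Mb. The ratio to the length-class rate without Prdm16 was not computed, and the interval counts its 11 peaks as independent.

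Gata4, which opens cardiac chromatin, had 3 peaks. Those at chr14:63241397-63241599 and chr14:63264649-63264882 had 18 fragments at the genome-wide background, and the one between them had 16 on a background of 1.94 times. Tbx5, the T-box factor of the left ventricle, had chr5:119837345-119837577 with 18 fragments and a second peak of 15. Tead1, the partner of YAP, had 2. Of the 12 genes, 7 had 1 each, among them Hopx. The nearest deficient-diet peaks lay 6075 to 29358 bp from the 3 sites in Gata4. Deficient-only peaks lay in the same genes, with 1 in Gata4, 2 in Tbx5, 5 in Tead1 and 15 in Prdm16. Within 1 kb of a gene end, Gata4 held 2 further unpaired deficient-diet peaks, and Tbx5 and Tead1 held 1 each.

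The vitamin D list had 18 peaks in 11 of 28 genes, 2.13 times the length-class rate (1.26 to 3.37), with deficient-only peaks at 1.08 times. Smarca4, the BRG1 ATPase of chromatin remodelling, had 3, of which chr9:21677889-21678178 was tallest with 21 fragments. Rxra, the partner receptor, had 3, of 13 to 18 fragments, with deficient-diet peaks 1063 to 3931 bp away. Cdkn1a, the cell cycle inhibitor p21 and a known VDR target, had chr17:29094290-29094470 with 16 fragments and chr17:29098356-29098678 with 21. Ncoa2, a coactivator of nuclear receptors, had 1. Neither Cdkn1a nor Vdr held a distal deficient-only peak, while Rxra held 6, Ncoa2 3 and Smarca4 2. Cdkn1a is short, and of genes up to 10 kb with a normal-diet-only peak, 11.2% held a deficient-only one.

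Other lists above their rate were matrix, energy and signalling genes. Extracellular matrix and fibroblast genes had 27 peaks in 16 of 29 genes, 2.25 times the rate (1.48 to 3.27), with deficient-only peaks at 1.76 times. Col5a1 had 7, of 12 to 20 fragments, and Hspg2, which encodes perlecan, had 3. Fbn1 (fibrillin), the laminin chain Lama4 and Fbln2 (fibulin) had 2 each. Energy metabolism had 16 peaks in 10 of 30 genes, 1.99 times (1.14 to 3.23), with deficient-only peaks at 1.43 times. Cpt1a, the gate of mitochondrial fatty acid import, had 4, and the coactivators Ppargc1a and Ppargc1b and the creatine kinase Ckm had 2 each. Acadm, an acyl-CoA dehydrogenase, had 1.

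Wnt pathway genes had 22 peaks in 15 of 33 genes, 1.82 times the rate (1.14 to 2.75), and deficient-only peaks stood at 1.79 times. Lrp5, the Wnt co-receptor, had chr19:3660797-3661233 with 24 fragments at the genome-wide background and 2 more of 16. Axin1, of the destruction complex, the cytoplasmic mediators Dvl2 and Daam1 and the receptor Ryk had 2 each. The reported intervals of the 5 lists so far lay above 1, but they came to include 1 under some of the 11 other settings: 1 for cardiac transcription factors, 3 for vitamin D, 4 for matrix genes, and 5 each for energy and Wnt genes. With both lists at a -log10 q of 5 or more, for instance, the interval was 0.929 to 3.86 for cardiac transcription factors.

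Notch genes had 14 peaks in 9 of 28 genes, 1.65 times the rate (0.901 to 2.77), with deficient-only peaks at 0.851 times. The coactivator Maml3 had 4 and the receptor Notch2 had 3, while the receptors Notch1 and Notch4 and Ncstn, of the gamma-secretase complex, had 1 each. Endothelial genes had 13 peaks in 6 of 26 genes, 1.35 times (0.721 to 2.32), with deficient-only peaks higher at 2.12 times. Nfatc1, needed for heart valves, had 5, Ece1, which makes endothelin, had 3, the VEGF receptor Flt1 had 2, and Nos3 and Egfl7 had 1 each. TGF-beta and BMP genes had 15 peaks in 10 of 33 genes, 1.18 times (0.662 to 1.95), with deficient-only peaks at 0.909 times. There the ligand Bmp7 had 3, the co-receptor Tgfbr3 and the inhibitors Smad6 and Smad7 had 2 each, and the ligand Tgfb3 had 1.

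The intervals of the genes of contraction included 1. Calcium handling and channel genes had 28 peaks in 14 of 30 genes, 1.16 times (0.773 to 1.68), with deficient-only peaks at 1.34 times. The value of 1.16 fell to 0.653 with no deficient-diet peak within 5 kb. It was 0.619 with bins left out at 5 peaks and 0.649 with bins counted over both lists. Cacna1g, a T-type calcium channel, had 4, and the potassium channels Kcnd3, Kcnh2 and Kcnq1 had 3 each. Sarcomere genes had 12 peaks in 10 of 32 genes, 1.06 times (0.550 to 1.86), with deficient-only peaks at 0.857 times. Ldb3, of the Z-disc, had 2. Tnni3, cardiac troponin I, had chr7:4520474-4520731 with 20 fragments, Tnnt2, cardiac troponin T, had chr1:135850813-135851001 with 18, and Synpo2 had 1 with 20. The sarcomere value of normal-diet-only peaks moved both ways with the settings. It rose to 3.29 with both lists at a -log10 q of 5 or more and to 2.16 with no bin left out. For peaks at the genome-wide background it fell to 0.487.

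Nuclear receptors other than VDR and its partners had 19 peaks in 12 of 32 genes. This was 1.10 times the rate (0.661 to 1.71), with deficient-only peaks at 1.19 times. The mineralocorticoid receptor Nr3c2 and the retinoic acid receptor Rarb had 3 each, and Esrrg, Rora and Ppard had 2 each. Epicardial and smooth muscle genes had 4 peaks in 4 of 17 genes, 1 each in Kcnj8, Myh11, Cnn1 and Itga8. This was 0.897 times the rate (0.244 to 2.30), with deficient-only peaks at 0.758 times.

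Below their rate were 3 further lists. Chromatin structure genes had 5 peaks in 5 of 28 genes, 0.480 times (0.156 to 1.12), with deficient-only peaks at 0.594 times. The cohesin genes Rad21 and Stag1, the cohesin regulator Pds5b, Satb1 and the lamin B receptor Lbr had 1 normal-diet-only peak each. Neural markers had 17 peaks in 6 of 20 genes, 0.490 times (0.285 to 0.784), with deficient-only peaks at 0.810 times. Rbfox3 held 9 of the 17, Cntnap2 4, and Nrxn3, Dlg2 and Syt1 1 each. All genes over 200 kb shared 1 rate, 2.63 per Mb, though Cntnap2, Dlg2 and Nrxn3 span 1612235 to 2241333 bp. How far length within that class lowered the neural ratio was not tested. Blood and macrophage markers had 1 peak, in Mrc1, the mannose receptor, 0.266 times (0.00673 to 1.48), with deficient-only peaks at 1.18 times. Over the 11 other settings, the ratio itself, without its interval, ran from 2.03 to 3.35 for cardiac transcription factors, 1.36 to 2.72 for vitamin D, 1.37 to 2.76 for matrix, 1.22 to 2.26 for energy and 1.36 to 2.15 for Wnt genes. It ran from 0.176 to 0.766 for chromatin, 0.184 to 0.622 for neural and 0 to 0.407 for blood genes. The interval of the neural list included 1 in 1 of these settings.

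**Figure D5:**
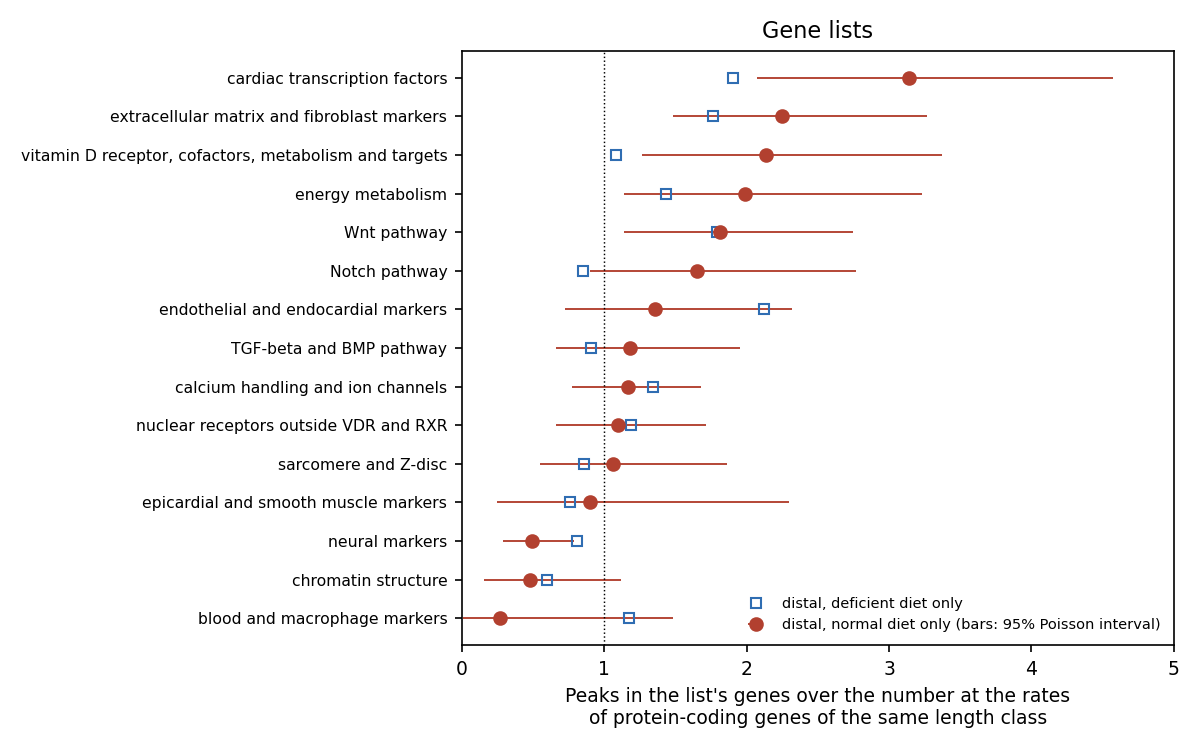
Peaks in the genes of each list (rows) over the number at the rates of protein-coding genes of the same length class (horizontal axis, dotted line at 1), for normal-diet-only peaks (circles, bars for the 95% Poisson interval of counting) and deficient-only peaks (open squares). Cardiac transcription factors are highest at 3.14, and blood and macrophage markers lowest at 0.266.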

How the data were processed

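Each library is represented by 1 peak list on mm10. MACS2 and SAMtools are named, without versions, per the submitters' processing notes. The aligner, calling threshold and control library are not given in the sources used here. In the narrowPeak layout, the authors deposited for each peak a fold enrichment, which is a ratio over local background at the summit, and the -log10 of p and q, and these values describe peaks within a list only. In the normal-diet list, end and score joined by a point were split, and 1 line without a start was left out, so 23456 peaks were used. Summit pileup and background were recovered from the deposited fold and -log10 p (fold as pileup plus 1 over background plus 1, p as a Poisson upper tail), as tested on simulated data. The largest misfit to a deposited -log10 p was 0.000293.

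Genes and sequences came from RefSeq tables of GRCm38.p6, which hold 49554 spans on the autosomes and X, and strand only for the 17274 of 21631 protein-coding genes with a start sequence. Open sequence was sampled every 200 bp between the first and last called base of each chromosome. A bin was left out when either list alone had 10 peaks there. Shares carry exact Clopper-Pearson and counts exact Poisson 95% intervals, which cover counting error only. Python 3.11.15, numpy 2.4.6, pandas 2.3.3 and scipy 1.17.1 were used.

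The peaks and gene lists were chosen with earlier results of these data known. Named were the 8 strongest peaks inside and 6 outside spans, the 12 genes with most peaks, the 10 with most per length among those with 3 or more, up to 5 genes of each list and the 5 runs with most peaks. Exceptions are marked, and some genes that the rule names are not reported here. The other settings tried were thresholds, distances, gene tables, bins and local background. Total depth, motifs outside start windows and chromosome 18 sequences were not analysed here.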

Additional observations from a re-analysis of the deposited data

How the results depend on the processing

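Of 66 values of 6 results under 11 other settings, 31 stayed within the interval of the reported value (counts within 1.5 times) and 35 moved. Stricter thresholds leave fewer peaks by construction, and otherwise the cause was not tested. The settings of bins counted over both lists and of local background were chosen after seeing the data. No paired analysis was possible because there was a single library for each diet, and none could be left out.

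Values are given in the order number of peaks, share inside gene spans, share within 10 kb of another, share on X, median fold enrichment and share of protein-coding genes with a peak, where they moved. With both lists at a -log10 q of 5 or more, 4755 peaks remained, 10.8% lay within 10 kb of another, the fold was 5.12 and 9.63% of genes had a peak. With only the normal-diet-only peaks held to that value, there were 2867, 5.34%, 5.12 and 6.18%. At the genome-wide background there were 5126 peaks, 10.1% within 10 kb, 2.26% on X, a fold of 4.65 and 10.1% of genes.

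Moved shares inside spans, within 10 kb and of genes, in that order, were 56.4%, 12.7% and 12.4% with no deficient-diet peak within 5 kb, and 56.5%, 15.2% and 12.2% over 3 kb from gene ends. They were 52.3%, 18.4% and 16.5% with protein-coding genes only, and 62.3%, 19.7% and 17.5% with no bin left out. With bins left out at 5 peaks they were 54.2%, 11.3% and 11.0%, with 2.46% on X, and at 10 peaks of both lists together 56.5%, 13.5% and 12.8%, with 2.19% on X. With only overlap barred, 20.3% lay within 10 kb and 17.7% of genes had a peak. Of 165 list values, 16 moved.

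Low pileups limit all results, with a median of 16 fragments and a lowest value of 11.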
